A study of Mus musculus with 4 samples.

Results

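The S100 genes described here encode small calcium-binding proteins that are made in skin. They are the 10 rows of the deposited count table, of 56493 genes listed, whose gene name is S100a3, S100a4, S100a6, S100a7a, S100a8, S100a9, S100a10, S100a11, S100a14 or S100a16, and all 10 were found. They were measured in the epidermal layer of mouse dorsal skin, separated from the dermis with sodium thiocyanate. The conditional knockout (cKO, 2 libraries) lacks Stim1 and Stim2 in epithelium through K14-Cre, in which the keratin 14 promoter drives the recombinase, and the control (F/F, 2 libraries) carries the floxed alleles of both genes. STIM1 and STIM2 sense the calcium content of the endoplasmic reticulum and, when it falls, switch on channels that let calcium in through the plasma membrane. Keratin 14 is made by epithelial cells, so Cre driven by its promoter leaves Stim1 and Stim2 in place in immune cells, fibroblasts and muscle. The labels used here give neither age, sex nor strain, nor whether the control mice carry Cre. They also do not say whether libraries of a group came from separate mice, so the p-values measure the spread between these libraries, which may be technical.

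S100 proteins form dimers and carry a pair of EF-hand motifs, loops that bind calcium. On binding calcium, most of them expose a surface that grips partner proteins such as annexins, and S100A10 is the exception, being held in its active shape without calcium. S100A8 and S100A9 pair to form calprotectin, an antimicrobial protein that binds zinc and manganese and acts as an alarmin, a danger signal released by stressed cells. In healthy epidermis calprotectin is scarce, and it is known to rise in wounded and inflamed keratinocytes, while neutrophils and monocytes carry it at all times. S100A6, S100A10, S100A11, S100A14 and S100A16 are made by keratinocytes without such a stimulus and are called constitutive here. Most S100 genes lie at the ends of the epidermal differentiation complex, a gene cluster that also holds the filaggrin, small proline-rich and late cornified envelope genes.

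The upstream sequences of the alarmin genes are shown because S100a8 and S100a9 were the members whose counts were higher in both cKO libraries at low levels, and that of S100a11 because it is a constitutive member at the other end of the cluster. The sequences are RefSeq's for GRCm38.p6, which had an entry for 8 of the 10 members; S100a10 and S100a14 had none. The first stretch lies on the plus strand at chr3:90668821-90668977 and ends 94 bases before the RefSeq start of S100a8, where an exon annotated in GENCODE M21 begins. The second lies on the minus strand at chr3:90695722-90695971 and the third on the plus strand at chr3:93520246-93520487, ending 1 and 9 bases before the start. Each is printed 5′ to 3′, with capitals marking matches to any of the motifs named below.
S100a8: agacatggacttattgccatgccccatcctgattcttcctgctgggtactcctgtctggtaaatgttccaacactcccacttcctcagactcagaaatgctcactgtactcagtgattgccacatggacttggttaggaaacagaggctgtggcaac
S100a9: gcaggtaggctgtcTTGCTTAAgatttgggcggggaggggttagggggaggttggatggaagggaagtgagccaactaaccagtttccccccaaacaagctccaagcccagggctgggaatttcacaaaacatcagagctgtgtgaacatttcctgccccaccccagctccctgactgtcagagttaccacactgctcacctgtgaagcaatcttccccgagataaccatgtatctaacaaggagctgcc
S100a11: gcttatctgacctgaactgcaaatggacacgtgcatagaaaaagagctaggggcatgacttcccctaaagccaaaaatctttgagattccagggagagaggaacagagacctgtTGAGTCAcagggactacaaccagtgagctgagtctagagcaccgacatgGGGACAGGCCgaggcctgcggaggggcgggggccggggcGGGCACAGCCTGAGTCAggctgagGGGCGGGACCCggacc

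The motifs were searched on both strands in the 250 bases before each start. They were TGANTCA for AP-1, TTGCNNAA and its reverse complement TTNNGCAA for C/EBP, TTCNNNGAA for STAT, GGG followed by any 5 bases and CC for NF-kappaB and TGGAAA for NFAT, the factor that calcineurin activates after store-operated calcium entry. S100a8 held none of them. S100a9 held 1 C/EBP match, 236 to 229 bases before its start, a motif found in 9.58% of all 32544 mouse promoter windows. S100a11 held 2 AP-1 matches (in 6.73% of all windows), at 136 to 130 and 38 to 32 bases before its start, and 4 NF-kappaB matches, of which a pair overlap (in 45.97% of all windows). Among the 8 members with a window, S100a7a alone held the NFAT letters, at 2 places (in 18.63% of all windows), and it also held 1 STAT match (in 7.04%). The S100a8 and S100a9 windows had a GC content of 50.8% and 53.6% with 2 CpG dinucleotides each, and the S100a11 window 60.0% with 11, against medians of 52.4% and 6 over all windows. These matches describe letters and not bound sites.

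The libraries were shallow, with total counts from 118858 (cKO replicate 2) to 322426 (control replicate 2), and a count of 0 allows up to 3 counts. Values are given as CPM, each count divided by the library's count in tested genes after TMM scaling and put on a per-1000000 scale, a scaling that sets most genes to no change between libraries. In CPM those 3 counts are 12.1 and 33.7 in cKO replicates 1 and 2 and 16.01 and 9.58 in control replicates 1 and 2. Intervals and limits from counts cover counting error only. Of the deleted genes, Stim1 had 23 and 6 counts in the knockout libraries and 24 and 62 in the controls (log2 fold change -0.98, standard error (SE) 0.52, adjusted p = 0.671 by the quasi-likelihood test of edgeR with Benjamini-Hochberg adjustment). Stim2 had 0 and 1 against 3 and 18. The keratinocyte markers Krt5, Krt14, Krt15, Trp63, Krt1, Krt10, Dsp and Perp were present in every library. They summed to 15640 and 10373 CPM in cKO and to 10891 and 14530 CPM in control. Of the 8 tested, 0 were called, with 4 above 0 and 4 below. An unadjusted p under 0.05 in edgeR was found for 3, against 8.39% of all genes tested. Krt14 was at a log2 fold change of 2.04 (edgeR adjusted p = 0.0507), Krt1 at 1.69 (adjusted p = 0.239) and Krt15 at -1.06 (adjusted p = 0.526). Skeletal muscle markers, summed over 8 genes, took 44.5 and 89.9 CPM in cKO against 1414 and 926 CPM in control. Of the 6 tested, 4 (Acta1, Myh4, Tnnc2 and Pvalb) were called lower, against 0.189% of all genes tested. In bulk tissue, fewer cells of a type and less RNA per cell cannot be told apart. Fibroblast markers summed to 162 and 1146 CPM in cKO replicates 1 and 2 and to 448 and 268 CPM in control, and macrophage markers to 28.3 and 405 CPM against 112 and 95.8 CPM, so that cKO replicate 2 stood above the other 3 libraries in both lists.

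Of the 10 members, 6 passed the count filter and were tested, and 0 were called at an adjusted p under 0.05, where 0.848% of the 4243 genes tested were called. At an unadjusted p under 0.05 the count was 0 of 6, against 8.39% of all genes tested, and DESeq2 and limma-voom also called 0. The median log2 fold change of the 6 tested members was -0.15, with 2 above 0 and 4 below, beside a median of 0.007 over all genes tested. The members together had 2523 and 3495 CPM in cKO and 3191 and 3011 CPM in control, or 0.221% to 0.299% of all counts of a library, and the groups overlapped. Counting also S100a8 and S100a9, the groups did not overlap in 5 of the 10 members, 3 higher and 2 lower in cKO. Over all genes tested 38.5% did not overlap, 18.9% higher and 19.6% lower, so with 10 genes this share is near the background.

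**Figure D1:**
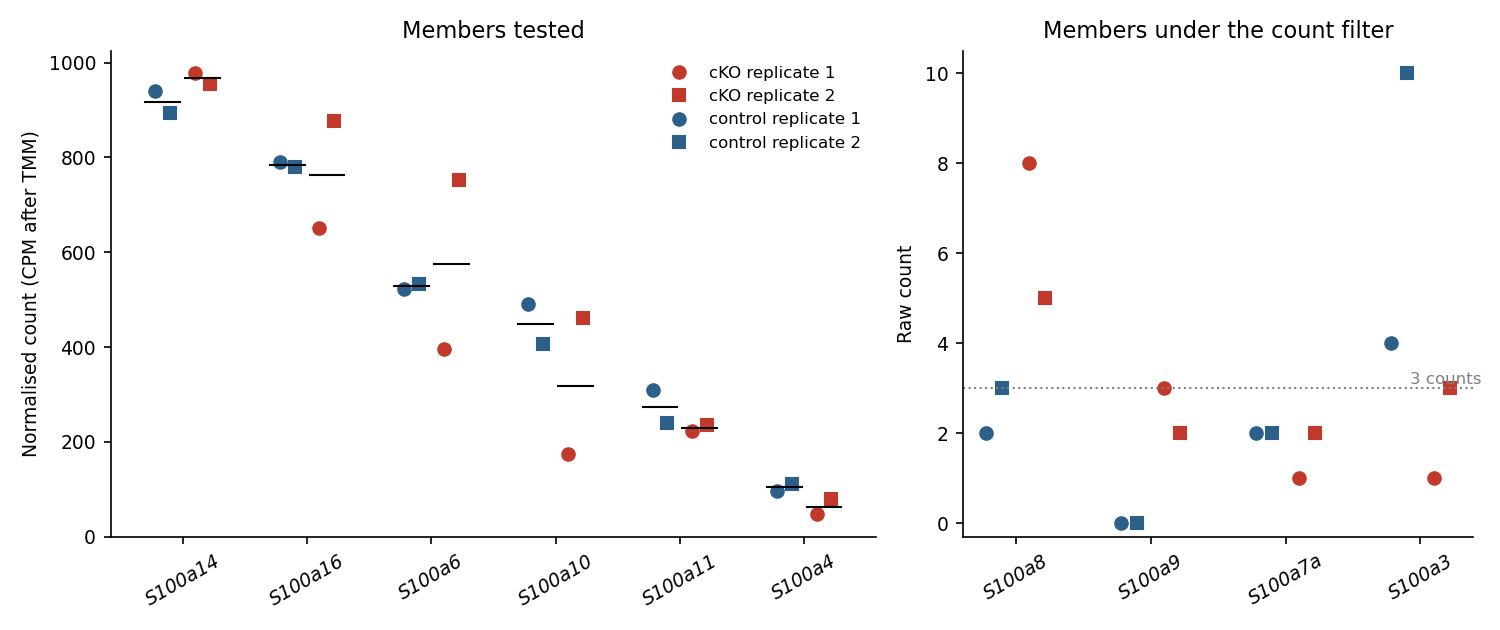
The left panel plots the normalised count (CPM) of the 6 tested members in each library, with horizontal bars at group means (n = 2), and the right panel plots the raw counts of the 4 members under the count filter. S100a14 lies between 894 and 979 CPM in all 4 libraries, while S100a8 has 8 and 5 counts in the knockout against 2 and 3, and S100a9 has 3 and 2 counts against 0 in both control libraries.

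Among the alarmins, S100a8 (ENSMUSG00000056054, chr3:90576285-90577342, plus strand) had 8 and 5 counts in the knockout libraries and 2 and 3 in the floxed controls. In CPM these were 32.3 and 56.2 in cKO and 10.7 and 9.58 in control. Both cKO values lay above both control values. Over the pooled libraries of each group, 13 counts stood against 5, a ratio of rates of 3.87 with an exact 95% counting interval of 1.30 to 13.9. The pooled ratio was 3.24 without cKO replicate 2, 5.63 without cKO replicate 1 and 3.62 to 4.04 without either control library. S100a8 was under the filter. In a fit with no count filter its log2 fold change was 1.91 (edgeR adjusted p = 0.911, unadjusted p = 0.0908).

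S100a9 (ENSMUSG00000056071, chr3:90599939-90603028, minus strand), the calprotectin partner of S100a8, had counts of 3 and 2 with the knockout and of 0 in both control libraries. Every library was at or under 3 counts, so no fold is given. The fit with no count filter gave an adjusted p of 0.911 in edgeR (unadjusted p = 0.0596). S100a7a (ENSMUSG00000063767, chr3:90561324-90565976, plus strand), the mouse relative of human psoriasin and another gene known to rise in inflamed skin, had 1 and 2 counts in cKO and 2 in each control library, and no fold is given. The 3 inducible members were therefore each at 8 counts or fewer in every library, and the depth limits what can be said of them.

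The alarmins were next set against the other 8 members within each library, a share that no scaling between libraries can change. S100a8 and S100a9 together were 11 of 624 member counts in cKO replicate 1 (1.76%, exact Clopper-Pearson 95% interval 0.883% to 3.13%) and 7 of 311 in cKO replicate 2 (2.25%, 0.910% to 4.58%). In control replicate 1 they were 2 of 598 (0.334%, 0.0405% to 1.20%), and in control replicate 2 they were 3 of 943 (0.318%, 0.0657% to 0.927%). Both cKO shares lay above both control shares, while the interval of each cKO library overlapped that of each control library. The group means were 2.01% ± 0.345 (SD, n = 2) in cKO and 0.326% ± 0.0115 (SD, n = 2) in control, a difference of 1.68 percentage points. With 2 libraries per group an exact permutation test cannot give a two-sided p below 0.333, and no test was made.

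**Figure D2:**
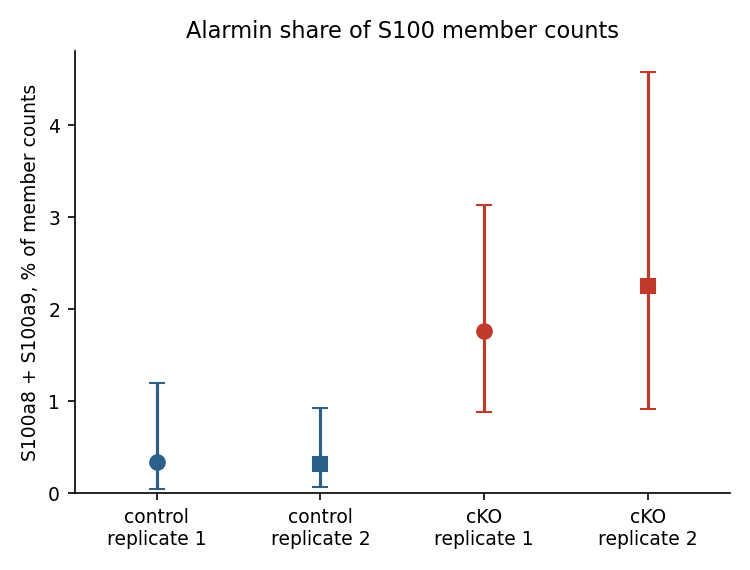
The plot shows S100a8 plus S100a9 as a percentage of the counts of all 10 members in each library, with exact 95% intervals that cover counting error only. The cKO libraries are at 1.76% and 2.25% and the control libraries at 0.334% and 0.318%, and the intervals of the groups overlap.

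Neutrophils carry calprotectin, and their markers were read beside it. Of 13 neutrophil markers, 10 were at 0 in all 4 libraries, among them Ly6g, Mpo, Elane, Cxcr2, Csf3r, Camp and Ngp. The other 3 (Retnlg, Mmp9 and Itgam) summed to 0 and 2 counts in cKO and to 6 and 13 counts in control. Most of the control sum was Mmp9, with 5 and 9 counts against 0 and 0 in cKO. Itgam had 0 and 3 counts in control against 0 and 0, and Retnlg had 1 and 1 against 0 and 2. With so few counts, the list cannot show whether neutrophils differed between the groups. The macrophage list, which includes the monocyte gene Lyz2, was higher in cKO replicate 2 (36 counts) than in cKO replicate 1 (7 counts). The part of myeloid cells in the S100a8 and S100a9 counts was not tested.

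Genes that act upstream of S100a8 and S100a9 in keratinocytes were given by a list of 25, of which 10 were tested. Of the 10, 1 was called higher and 0 lower, against 0.66% and 0.189% of all genes tested. An unadjusted p under 0.05 in edgeR was found for 2, against 8.39% of all genes tested. The median log2 fold change of the 10 was 0.28, with 6 above 0 and 4 below. The called gene was Il36a, a cytokine of the interleukin-1 family made by stressed keratinocytes, with 95 and 10 counts in the knockout libraries against 1 and 0 (edgeR adjusted p = 0.00378). Its call was lost with limma-voom (adjusted p = 0.389). Without cKO replicate 1, the library with the 95 counts, Il36a fell under the count filter and was not fitted. How far its call depends on that library could therefore not be tested. In CPM, Il36a had 384 and 112 in cKO against 5.34 and 0 in control. The C/EBP factor Cebpb had 129 and 832 CPM in cKO and 277 and 294 CPM in control, and Stat3 had 226 and 326 against 299 and 156 CPM. The groups overlapped for both, with log2 fold changes of 0.68 and 0.27 (edgeR adjusted p = 0.902 and 0.978). Il17a, Il17f, Il22, Tnf, Il6 and Il1a, cytokines that raise calprotectin in skin, were at 0 counts in all libraries, as was the receptor gene Il22ra1. Il1b had counts of 4 and 1 with the knockout against 0 and 0, and Il36b had 14 and 2 against 0 and 3, and neither passed the count filter. The other genes under the filter with any count went both ways. Nfkbiz had 11 and 6 against 4 and 11, Ets1 13 and 1 against 2 and 0, and Traf3ip2 3 and 2 against 0 and 0. Il1r1 had 6 and 0 against 5 and 3, Il17ra 4 and 3 against 0 and 9, and Fosl1 0 and 0 against 0 and 1. Il36g, the second gene with an unadjusted p under 0.05, had 81 and 35 counts against 14 and 44 (log2 fold change 1.70, SE 0.48, edgeR adjusted p = 0.174, unadjusted p = 0.00329). The 4 tested genes below 0 were Junb at -1.24, Hif1a at -0.86, Il17rc at -0.66 and Il1rn at -0.40 (edgeR adjusted p from 0.743 to 0.988).

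Of the receptors for extracellular S100 proteins, Ager, which encodes RAGE, Tlr4 and Mcam were at 0 counts in all 4 libraries. Bsg, which encodes basigin, a receptor for S100A9, had 109 and 180 CPM in cKO and 139 and 109 CPM in control, with overlapping groups. Alcam and Nptn had at most 13 counts in a library. Of the 8 receptor genes 2 were tested, 0 were called and 0 had an unadjusted p under 0.05 in edgeR.

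Of the constitutive members, S100a14 (ENSMUSG00000042306, chr3:90434163-90436144, plus strand), a protein of epithelial cells, had 979 and 955 CPM in cKO and 939 and 894 CPM in control. The 4 libraries lay within a narrow range, with both cKO values just above both control values. Its log2 fold change was 0.08 (SE 0.41, edgeR adjusted p = 0.996) and a 95% interval from -0.80 to 0.95, that is from 0.576-fold to 1.94-fold. S100a16 (ENSMUSG00000074457, chr3:90444561-90450458, plus strand), a widely expressed member of the family, had 651 and 877 CPM in cKO and 790 and 779 CPM in control. The control libraries lay between the cKO libraries. Its log2 fold change was -0.05 (SE 0.41, adjusted p = 0.997), with an interval from 0.521-fold to 1.80-fold. With library totals in place of TMM the log2 fold change of S100a14 was -0.15, a setting that moved the median of all genes by -0.21. Relative to that shift it stayed above 0.

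S100a6 (ENSMUSG00000001025, chr3:90520189-90531488, plus strand), also called calcyclin, had 396 and 753 CPM in cKO and 523 and 533 CPM in control. The control libraries were nearly equal and lay between the cKO libraries. Its log2 fold change was 0.10 (SE 0.45, edgeR adjusted p = 0.994), and it turned to -0.41 without cKO replicate 2. S100a11 (ENSMUSG00000027907, chr3:93427795-93433594, plus strand), which binds annexin A1, had 222 and 236 CPM in cKO and 309 and 240 CPM in control. Both cKO values lay below both control values, by a small margin against control replicate 2. Its log2 fold change was -0.26 (SE 0.44, adjusted p = 0.971). The gene Gm7665 is 98.7% identical to S100a11 over 297 bases of reference transcript and had 6, 1, 9 and 7 counts in the order cKO 1, cKO 2, control 1 and control 2. How reads shared by such copies were counted is not stated.

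S100a10 (ENSMUSG00000041959, chr3:93462387-93471950, plus strand), also called p11, joins a pair of annexin A2 molecules into a complex at the plasma membrane. It had 174 and 461 CPM in cKO and 491 and 406 CPM in control. Only cKO replicate 1 was low, and cKO replicate 2 lay between the control libraries. The log2 fold change was -0.56 (SE 0.50, edgeR adjusted p = 0.894). Leaving out cKO replicate 2 made it -1.35 (adjusted p = 0.413), and leaving out cKO replicate 1 made it -0.00060, so the estimate rests on cKO replicate 1. In CPM, every member except S100a14 was higher in cKO replicate 2, the shallowest library, than in cKO replicate 1, so this was not particular to S100a6 and S100a10. The fibroblast and macrophage lists given above were higher there too, with Vim at 371 against 109 CPM and Lyz2 at 214 against 4.04 CPM. The part of those cells in the S100 values was not tested.

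Partners of S100 proteins were followed in a list of 10, of which 6 were tested and 0 were called. An unadjusted p under 0.05 in edgeR was found for 2 of the 6, against 8.39% of all genes tested. These 2 are known to form a complex with S100A10. Anxa2, the partner that S100A10 binds, had 522 and 742 CPM in cKO and 1297 and 1175 CPM in control. The log2 fold change of Anxa2 was -0.98 (SE 0.42, edgeR adjusted p = 0.535, unadjusted p = 0.0377). Ahnak, a giant scaffold protein that docks on the S100A10 and annexin A2 complex, had 3287 and 2630 CPM in cKO and 5768 and 6824 CPM in control. The log2 fold change of Ahnak was -1.09 (SE 0.43, adjusted p = 0.479, unadjusted p = 0.0249). Both cKO values were under both control values in each of the 2 genes, and neither passed the threshold in this fit. Anxa1, the partner of S100A11, had 388 and 236 CPM against 342 and 473 CPM, with overlapping groups (adjusted p = 0.946). Anxa2 stayed between -1.24 and -0.78 and Ahnak between -1.31 and -0.93 over 15 alternatives, of which 1, the crossed replicate block chosen after seeing the data, took Ahnak past the threshold (adjusted p = 0.0204), while S100a10 ranged from -1.35 to -0.00060.

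**Figure D3:**
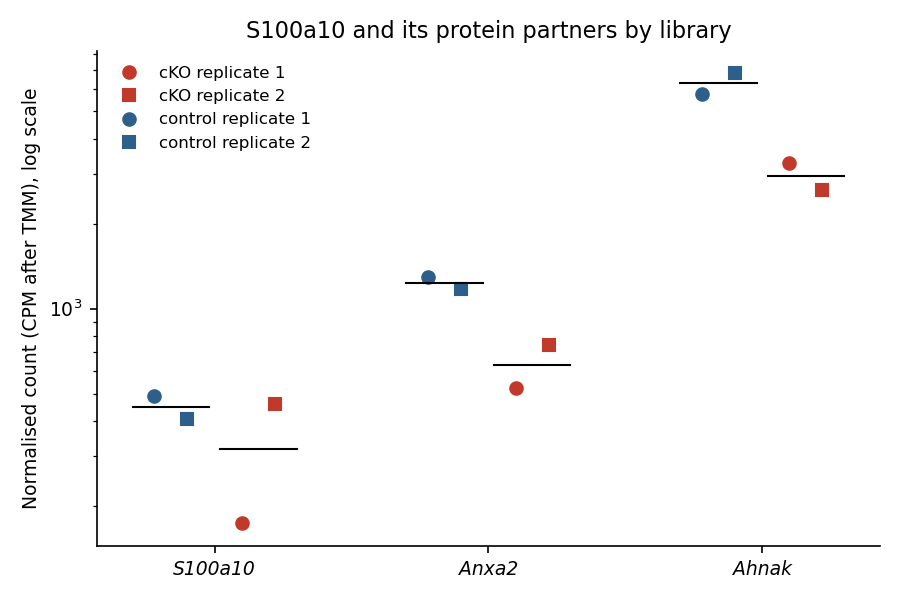
The plot shows the normalised count (CPM, log axis) of S100a10, Anxa2 and Ahnak in each library, with bars at group means (n = 2). Both cKO libraries lie below both control libraries for Anxa2 and Ahnak, while S100a10 is at 174 CPM in cKO replicate 1 and at 461 CPM in cKO replicate 2, between the control libraries.

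S100a4 (ENSMUSG00000001020, chr3:90511078-90513352, plus strand), known from fibroblasts and leukocytes, had 12 and 7 counts in the knockout libraries and 18 and 35 in the controls. These were 48.5 and 78.7 CPM in cKO and 96.1 and 112 CPM in control, and both cKO values lay below both control values. Its log2 fold change was -0.79 (SE 0.61, edgeR adjusted p = 0.844), and it moved to -0.45 and -1.09 when cKO replicate 1 or 2 was left out. Exons of S100a4 share 302 bases with Gm42674 on the same strand, so that the counts of these 2 genes are uncertain. Gm42674 had 10, 5, 16 and 31 counts in the same library order, and the 2 genes together had 89.0 and 135 CPM in cKO and 181 and 211 CPM in control. T cell markers, another source of S100a4, summed to 267 and 236 CPM in cKO and to 432 and 307 CPM in control, with 0 of 4 tested called. Thy1 gave 42 of the 66 counts in cKO replicate 1 and was the 1 tested gene above 0 (log2 fold change 1.36). The other 3 were below 0, the lowest being Ptprc at -2.20 (edgeR adjusted p = 0.494). Langerhans cell markers summed to 1072 and 2956 CPM against 3805 and 2111 CPM, with 0 of 4 tested called and all 4 below 0. Cd207, under the filter, weighed little in these sums, which held 263 to 713 counts per library. It was at 1 count in cKO replicate 1 and at 0 in cKO replicate 2, while the floxed controls held 8 and 10. Ctss, also under the filter, overlapped between the groups (9 and 5 counts with the knockout, 8 and 12 without). The part of T cells and Langerhans cells in the S100a4 values was not tested.

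S100a3 (ENSMUSG00000001021, chr3:90491966-90510009, plus strand), a protein of the hair cuticle, had 1 and 3 counts in the knockout libraries and 4 and 10 in the controls and was under the filter. Its pooled ratio of rates was 0.425 with an exact 95% counting interval of 0.102 to 1.35, and it moved to 1.21 when cKO replicate 1 was left out and to 0.145 when cKO replicate 2 was. The difference was not detectable at this depth. Exons of S100a3 share 144 bases with Gm42674 and 153 bases with S100a2 on the same strand, so these counts are uncertain as well; S100a2 itself had 0 counts. Hair shaft markers summed to 437 and 303 CPM in cKO and to 1382 and 1293 CPM in control. Nearly all of that was Tchh, with 99 and 26 counts in the knockout libraries against 257 and 398, while Krt31, Krt33a, Krt33b, Krt35, Krt81, Krt82 and Padi3 were at 0 in all libraries. Padi3 encodes the enzyme that modifies S100A3 in hair. The part of hair in the S100a3 counts was not tested.

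**Figure D4:**
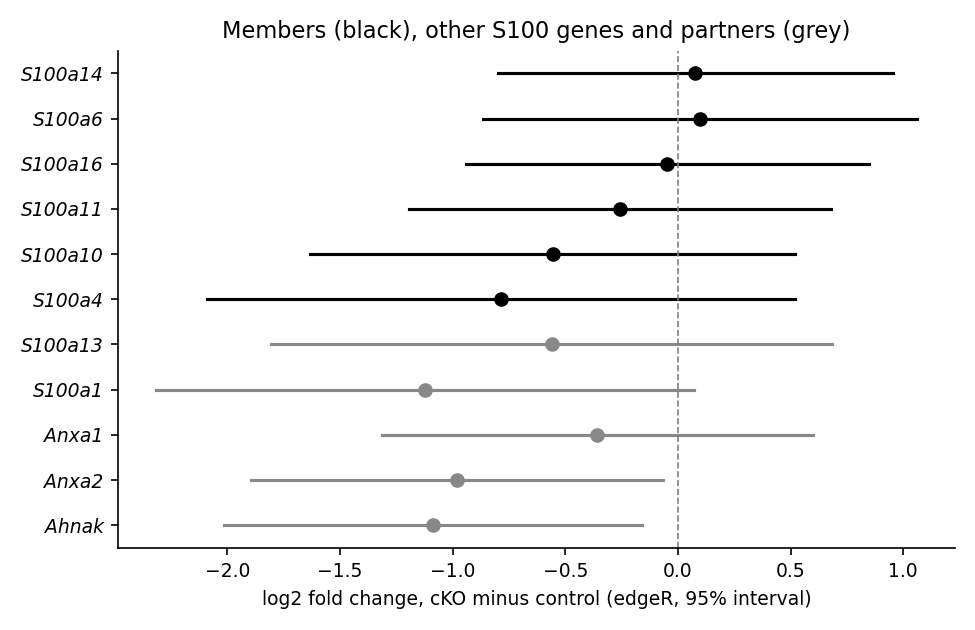
Points are log2 fold changes (cKO minus control, edgeR) and lines their 95% intervals for the 6 tested members in black and for S100a13, S100a1, Anxa1, Anxa2 and Ahnak in grey. All 6 member intervals include 0, from S100a4 at -0.79 to S100a6 at 0.10.

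Levels between members were compared per kilobase of the gene length in the table. In control the order was S100a11 at 537, S100a14 at 531, S100a16 at 485, S100a6 at 386, S100a10 at 370 and S100a4 at 178 CPM per kilobase (means, n = 2). In cKO it was S100a14 at 560, S100a16 at 472, S100a11 at 449, S100a6 at 420, S100a10 at 262 and S100a4 at 109 CPM per kilobase. The library kit reads the 3′ end of transcripts, so division by length is not needed for such counts and can change the order; without it S100a14 came first in both groups, followed by S100a16 and S100a6. S100a14 and S100a16 together made up from 52.4% to 64.6% of the member counts of a library.

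The rest of the S100 family was represented by 9 further genes in the table. S100a2, S100a5, S100a7l2, S100a11-ps, S100z and S100g had 0 counts in all libraries, and S100b, a marker of melanocytes and glia, had 1 count in cKO replicate 1. S100a13 had 68.7 and 67.4 CPM in cKO and 107 and 95.8 CPM in control, and its log2 fold change was -0.56 (edgeR adjusted p = 0.912). S100a1, known from heart and skeletal muscle, had 60.7 and 169 CPM in cKO and 272 and 185 CPM in control. Both cKO values lay below both control values. Its log2 fold change was -1.12 (SE 0.55, adjusted p = 0.638, unadjusted p = 0.0634). It moved to -0.47 and -1.89 when cKO replicate 1 or 2 was left out, and it was not called in any of 15 alternatives. The muscle markers given above were lower in both cKO libraries too, and their part in the S100a1 value was not tested. Melanocyte and Schwann cell markers summed to 137 and 427 CPM in cKO and to 331 and 89.4 CPM in control.

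The members flank the epidermal differentiation complex on chromosome 3, which allowed them to be set beside their neighbours. From S100a14 to S100a10 the table lists 121 genes, of which 42 were tested. In the stretch of 168.9 kb from S100a14 to S100a9, 5 genes were tested, 4 of them members, and 0 were called. In the stretch of 44.2 kb from S100a11 to S100a10, 2 genes were tested, both members, and 0 were called. Between these 2 stretches lie 104 genes, of which 35 were tested, 9 were called higher and 1 was called lower, against 0.66% and 0.189% of all genes tested. An unadjusted p under 0.05 in edgeR was found for 23 of the 35, against 8.39% of all genes tested. The tested genes of the S100 stretches had log2 fold changes from -0.99 to 0.10, and those between them from -2.36 to 7.91. No difference between the stretches was tested.

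The called neighbours were Sprr2a1, Sprr2a2 and Sprr2a3, small proline-rich proteins of the cell envelope; Lce1e, Lce1f, Lce1g and Lce3c of the late cornified envelope family; Flg and Hrnr, which encode proteins with an S100-like domain fused to long repeats; and Tchhl1. Flg, the filaggrin gene, had 2218 and 479 counts in the knockout libraries against 20 and 98 (log2 fold change 5.07, SE 0.62, edgeR adjusted p = 0.000593). Lce3c had 54 and 33 counts against 3 and 6 (log2 fold change 3.96, adjusted p = 0.00378). Tchhl1, a trichohyalin relative, had 43 and 13 counts in the knockout libraries against 158 and 258 (log2 fold change -2.36, adjusted p = 0.0219). The 95% intervals of the 6 tested members reached at most 2.09-fold higher (S100a6) and 4.26-fold lower (S100a4) in cKO. S100a8 and S100a9 were not tested and are not covered by those bounds. The 9 neighbours called higher were picked by their calls, so no contrast with the members is drawn from them. Neighbours that were not called had log2 fold changes from -2.24 (Prr9) to 4.50 (Lce1j) and included Lor at 0.31. Copies of Sprr2a1, Sprr2a2 and Sprr2a3 are near-identical, so the division of reads among them is uncertain. Without cKO replicate 1, Hrnr and Lce1e lost their calls (adjusted p = 0.0729 and 0.671). With limma-voom 6 of the 10 calls were lost, those of Sprr2a1, Sprr2a2, Sprr2a3, Lce1e, Lce1g and Lce3c (adjusted p from 0.148 to 0.443).

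**Figure D5:**
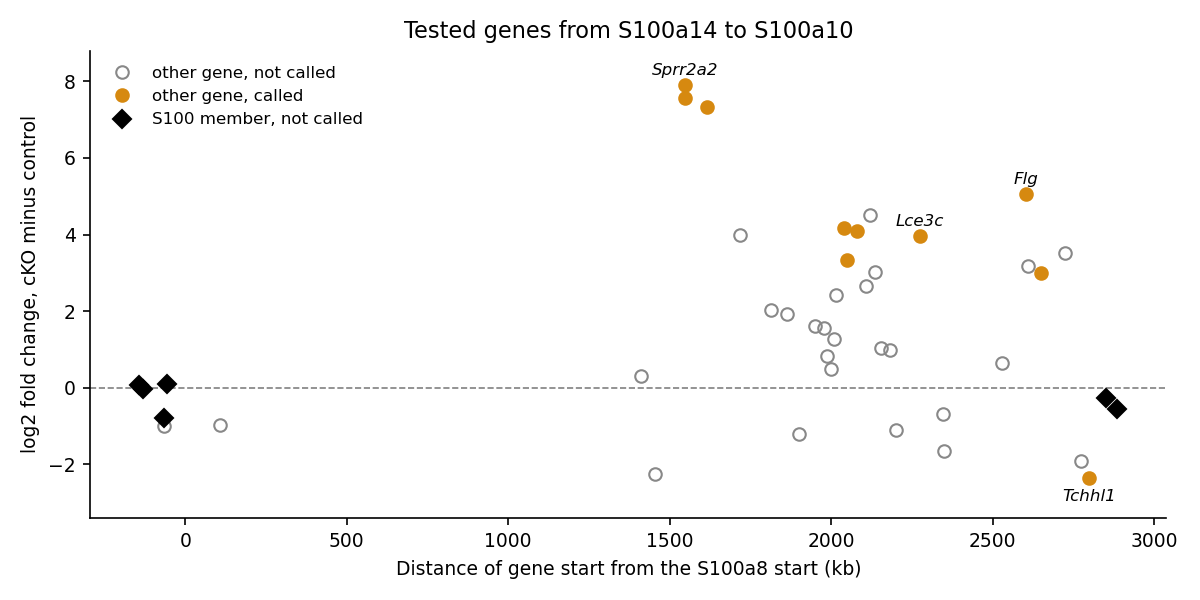
The plot places each tested gene from S100a14 to S100a10 by the distance of its start from that of S100a8 (kb) and by its log2 fold change (cKO minus control). The 6 tested members (black diamonds) sit at the ends between -0.79 and 0.10, while the 10 called genes (filled circles) lie between them. S100a3, S100a7a, S100a8 and S100a9 were not tested and are not plotted.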

How the data were processed

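RNA was extracted from separated epidermis and sequenced from the 3′ end (QIAseq UPX kit, converted for MGI), per the labels' protocols. For the 4 libraries the authors deposited a single table of raw counts by gene; it also holds exon coordinates and gene length. The submitters' processing notes name Trim Galore 0.6.7, Trimmomatic 0.39, cutadapt 3.7, STAR 2.7.10a, featureCounts 2.0.1 and GRCm39. Table coordinates are given as deposited; upstream sequences are GRCm38.p6. Use of strand, of molecular identifiers and of multiply aligned reads is not given in the sources used here. Groups came from the titles.

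All genes were fitted with edgeR 4.0.16 (R 4.3.3): filterByExpr (minimum count 10, minimum total 15; 4243 genes), TMM, glmQLFit and glmQLFTest, genotype as the only term, Benjamini-Hochberg over all genes, threshold 0.05. Standard errors are the absolute log2 fold change over the square root of F. Ratios of genes under the filter are pooled rates with exact conditional intervals. Shared sequence was sought with blastn 2.17.0 (at least 95% identity over 150 bases). DESeq2 1.42.0, limma-voom (limma 3.58.1) and other settings were alternatives.

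The members and gene lists were chosen with earlier results of these data known. Named are all members, Stim1, Stim2, and called neighbours; of the lists of other S100 genes, receptors, partners and upstream genes, the called genes, filled up to 3 with the most abundant. Marker lists are given as sums. Il36g, Il36b, Il1b, Nptn, Vim, Lyz2, Tchh, Gm42674, Gm7665 and genes at 0 were added after their values were seen. So were Junb, Hif1a, Il17rc, Il1rn, Retnlg, Mmp9, Itgam, Cd207, Thy1, Ptprc, Lor, Prr9 and Lce1j. The values of Krt1, Krt14, Krt15, Ctss, Nfkbiz, Ets1, Traf3ip2, Il1r1, Il17ra and Fosl1 were added in the same way.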

Additional observations from a re-analysis of the deposited data

How the results depend on the processing

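The number of members called was 0 in each direction under all 16 alternatives. Over all genes the count called higher was 28 and lower 8. It was 49 and 26 with no count filter, 12 and 3 with limma-voom, 43 and 17 at an adjusted p under 0.1, and 15 lower with a mean of at least 10 CPM. Without 1 library it ranged from 34 to 59 higher and from 8 to 34 lower. The cause was not tested. With the replicate number as a block it was 16 and 1. The deviations of same-numbered libraries had a correlation of -0.163. With 2 libraries per group this cannot show whether same-numbered libraries belong together, and no paired result is drawn. Hrnr, Tchhl1, Lce1e and Lce1f lost their calls under that block (adjusted p = 0.281, 0.173, 0.104 and 0.173). With crossed replicate numbers as a block, chosen after seeing the data, it was 90 and 57. Library totals moved the median of all genes by -0.21. S100a6 was at -0.16 with library totals and -0.015 with no count filter, S100a14 at -0.15 and -0.011 under these, and relative to the shift of all genes both stayed above 0 with library totals; without 1 library S100a6 ranged from -0.41 to 0.47 and S100a16 from -0.26 to 0.12. Bsg was at -0.054 with library totals, above that shift, and without 1 library Bsg ranged from -0.16 to 0.51, Cebpb ranged from -1.13 to 1.49 and Stat3 from -0.13 to 0.80. The alarmin share difference of 1.68 percentage points stayed between 1.44 and 1.92 in 5 alternatives. Depth limits S100a3, S100a7a, S100a8 and S100a9 most, at 10 counts or fewer in every library.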
